A study of Mus musculus with 4 samples.

Results

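The ADAMTS and MMP matrix protease genes were followed through H3K27ac maps of fetal mouse cartilage cells and of the cells around them. The set holds 40 of 21562 protein-coding genes: 19 Adamts genes, 5 Adamtsl genes, 12 Mmp genes and 4 Timp genes. A peak was counted for a gene when it lay within 100 kb of one of the gene's annotated start sites on GRCm39. Peaks touching a window around a start site of any protein-coding gene (2 kb before it, 500 bp after it) were promoter peaks, and all others were distal. The 40 genes were a given list from these families, without other family genes such as Mmp7, Mmp8 and Mmp12, and peaks were assigned to them by position.

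H3K27ac ChIP-seq had been performed on 4 sorted cell populations of E14.5 fetuses, with 1 library per population. All fetuses carried the homozygous Col2a1-EGFP regulatory sensor on the G4 background, in which a beta-globin minimal promoter and EGFP stand upstream of Col2a1, and all were derived from embryonic stem cells by tetraploid aggregation. Limb EGFP+ and limb EGFP- cells came from pooled stylopods, zeugopods and autopods, and trunk EGFP+ and trunk EGFP- cells from pooled trunks between neck and tail without internal organs. EGFP+ cells are the Col2a1-expressing chondrocytes, and EGFP- cells are the mixture of all remaining cells, so fewer cells of a type and less signal per cell cannot be told apart in the EGFP- lists. No input or wild-type library was used here, and no difference between populations could be tested against replicates.

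ADAMTS proteases are secreted zinc metalloproteases that work on the extracellular matrix. Some remove the N-propeptide of fibrillar procollagens, some cut the large proteoglycans aggrecan and versican, and several act on or near fibrillin microfibrils. ADAMTS-like proteins share their ancillary domains but lack the catalytic domain. Matrix metalloproteinases (MMPs) degrade collagens, gelatin and many other matrix proteins, and TIMPs inhibit MMPs. H3K27ac is a histone mark of active promoters and enhancers. In fetal cartilage a matrix rich in type II collagen and aggrecan is laid down by chondrocytes and later resorbed where bone replaces it.

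The lists held 40899 (limb EGFP+), 34360 (limb EGFP-), 36231 (trunk EGFP+) and 30716 (trunk EGFP-) peak intervals, of which 22833, 17768, 19295 and 14231 were distal. Because the peak caller writes fold enrichment and p-value from whole reads, the reads at each summit could be recovered for all intervals: the median interval had 24.0 to 26.0 reads, the weakest called one 7 or 8, and the genome-wide background was 1.49 to 1.83 reads. A missing call therefore does not mean that the mark was absent. The 15 chondrocyte markers bore a promoter peak in 15 and 15 cases in the limb and trunk EGFP+ lists and in 5 and 4 cases in the EGFP- lists, with 158 EGFP+-only against 20 EGFP--only distal regions around them. Of 5 blood and macrophage markers none had a promoter peak in any list, of 6 muscle markers only 1 did in limb EGFP+, and of 6 endothelial markers 1 did in each EGFP- list, so that the defining genes of these 3 cell types were mostly uncalled in the EGFP- lists too. Of 7 connective tissue markers 4, 5, 4 and 5 had a promoter peak in limb EGFP+, limb EGFP-, trunk EGFP+ and trunk EGFP-. Around them lay 19 EGFP+-only against 31 EGFP--only distal regions. These sums, like those of the chondrocyte markers, count a region once for each marker near it. The same sums were 38 to 13 around hypertrophic and bone, 15 to 3 around neural and 9 to 9 around muscle markers. They were 11 to 14 around endothelial, 5 to 8 around epithelial and 4 to 9 around blood and macrophage markers. Names within the lists place the limb libraries on one sequencing lane and the trunk libraries on another, and the effects of tissue and lane cannot be told apart. Those of the trunk EGFP- list carry the replicate number 2, although its label says 1.

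Distal regions, made by merging overlapping intervals of the 4 lists, carried the differences described below. The underlying sequence is shown first for a choice of leading regions within 100 kb of a member. The first group had peaks in the EGFP+ lists of both tissues and in neither EGFP- list: a pair of regions in the introns of Adamts3 (chr5:89963776-89964075 and chr5:89965341-89965640), one in an intron of Adamts12 (chr15:11098881-11099180) and one in an intron of Adamts17 (chr7:66518158-66518457). The second group had peaks in EGFP- lists only: a further intron of Adamts17 (chr7:66795770-66796069), an intergenic region near Adamts15 (chr9:30745633-30745932) and the first stretch of Adamts2 past its promoter window (chr11:50493548-50493847). Each is the 300 bases of the GRCm39 plus strand centred on the strongest summit. Capitals mark short motif matches: CAGCTG in the first Adamts3 region, GTAAACA in the second, and the same FOX motif on the other strand in the EGFP--only Adamts17 region. Leading regions not shown include one in an exon of Mmp2, with the SOX motif ACAATG, and one upstream of Timp2.
Adamts3 intron, first: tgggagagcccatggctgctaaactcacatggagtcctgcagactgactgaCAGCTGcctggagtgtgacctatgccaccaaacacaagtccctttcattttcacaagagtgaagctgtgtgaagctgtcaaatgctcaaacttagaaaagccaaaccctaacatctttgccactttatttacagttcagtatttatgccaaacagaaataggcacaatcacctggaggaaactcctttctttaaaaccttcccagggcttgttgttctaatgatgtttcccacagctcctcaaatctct
Adamts3 intron, second: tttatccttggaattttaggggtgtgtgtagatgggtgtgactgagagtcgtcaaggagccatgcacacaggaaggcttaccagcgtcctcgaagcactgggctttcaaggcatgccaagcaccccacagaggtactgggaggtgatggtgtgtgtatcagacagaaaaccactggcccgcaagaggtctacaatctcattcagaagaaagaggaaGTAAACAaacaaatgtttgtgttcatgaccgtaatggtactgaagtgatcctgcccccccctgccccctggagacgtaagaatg
Adamts12 intron: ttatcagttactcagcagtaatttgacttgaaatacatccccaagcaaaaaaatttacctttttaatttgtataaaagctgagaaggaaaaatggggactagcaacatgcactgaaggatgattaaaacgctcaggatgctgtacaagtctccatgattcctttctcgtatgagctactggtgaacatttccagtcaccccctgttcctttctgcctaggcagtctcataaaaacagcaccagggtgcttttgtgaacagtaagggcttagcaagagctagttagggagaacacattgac
Adamts17 intron, EGFP+-only: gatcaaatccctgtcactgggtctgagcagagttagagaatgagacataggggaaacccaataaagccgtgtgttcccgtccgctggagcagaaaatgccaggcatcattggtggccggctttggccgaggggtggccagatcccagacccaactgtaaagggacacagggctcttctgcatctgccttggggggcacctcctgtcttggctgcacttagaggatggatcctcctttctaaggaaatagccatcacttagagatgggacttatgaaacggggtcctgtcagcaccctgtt
Adamts17 intron, EGFP--only: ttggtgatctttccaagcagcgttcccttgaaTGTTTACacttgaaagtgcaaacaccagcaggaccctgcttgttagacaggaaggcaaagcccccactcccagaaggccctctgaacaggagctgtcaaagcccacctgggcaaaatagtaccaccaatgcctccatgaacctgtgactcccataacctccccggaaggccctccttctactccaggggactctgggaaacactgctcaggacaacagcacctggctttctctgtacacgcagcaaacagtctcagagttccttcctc
Adamts15 intergenic: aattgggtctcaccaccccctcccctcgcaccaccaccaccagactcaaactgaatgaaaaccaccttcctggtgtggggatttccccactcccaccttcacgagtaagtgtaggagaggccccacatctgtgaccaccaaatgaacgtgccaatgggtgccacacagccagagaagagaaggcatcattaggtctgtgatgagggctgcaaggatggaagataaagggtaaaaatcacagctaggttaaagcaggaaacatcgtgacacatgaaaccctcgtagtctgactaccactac
Adamts2 intron: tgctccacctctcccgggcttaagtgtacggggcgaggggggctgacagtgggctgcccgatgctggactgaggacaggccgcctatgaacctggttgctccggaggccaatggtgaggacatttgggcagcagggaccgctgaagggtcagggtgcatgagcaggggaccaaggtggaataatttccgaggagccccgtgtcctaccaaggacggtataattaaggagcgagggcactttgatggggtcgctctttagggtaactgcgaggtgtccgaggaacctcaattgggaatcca

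Promoter peaks were found at similar numbers of members in all populations. In limb EGFP+ 23 of 40 members had one (57.5%, all genes 54.4%), in limb EGFP- 23 (57.5%, all genes 51.6%), in trunk EGFP+ 21 (52.5%, all genes 52.6%) and in trunk EGFP- 23 (57.5%, all genes 52.7%). The same 18 members were called in all 4 lists (45.0%, all genes 47.4%): Adamts1, Adamts3, Adamts6, Adamts7, Adamts10, Adamts12, Adamts14, Adamts17, Adamtsl1, Adamtsl2, Adamtsl4, Mmp2, Mmp14, Mmp16, Mmp17, Timp1, Timp2 and Timp3. No list held a promoter peak for 13 members (32.5%, all genes 41.3%): Adamts2, Adamts5, Adamts8, Adamts13, Adamts16, Adamts18, Adamtsl5, Mmp3, Mmp9, Mmp13, Mmp15, Mmp24 and Timp4. The remaining 9 were called in some lists only (22.5%, all genes 11.3%).

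**Figure D1:**
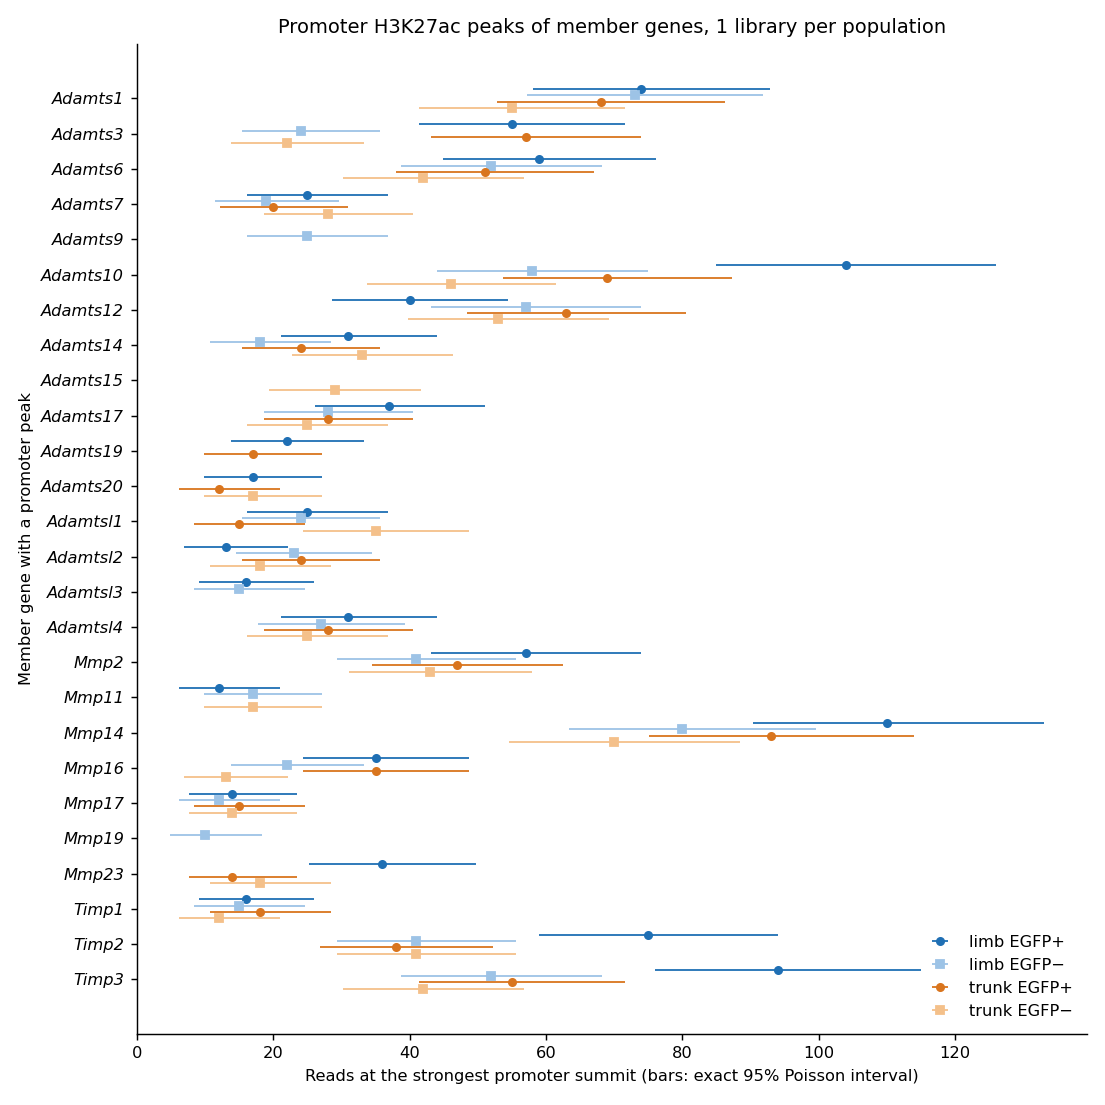
Reads at the strongest promoter summit (horizontal axis, reads) of members with a promoter peak (vertical axis), 1 point per list with its exact 95% Poisson interval, circles for EGFP+ and squares for EGFP-. Mmp14 in limb EGFP+ has the most reads (110), the Adamts3 points of the EGFP+ lists lie above both EGFP- points with separate intervals, and a gene without a point in a list had no peak there.

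Of the members called in some lists only, Adamts19, a little-characterised ADAMTS protease, was the only member called in both EGFP+ lists and in neither EGFP- list, a pattern shared by 1.45% of all genes. It had 22 reads in limb EGFP+ and 17 in trunk EGFP+.

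Adamts15, an aggrecan- and versican-cleaving protease, was called in trunk EGFP- only (29 reads). Adamts9, a versicanase, was called in limb EGFP- only (25 reads), but a region that began 1.03 kb downstream of its start site was marked in all 4 lists with 69, 28, 37 and 40 reads (limb EGFP+, limb EGFP-, trunk EGFP+, trunk EGFP-). The Mmp19 promoter was called in limb EGFP- only, with 10 reads and thus close to the limit of calling. Adamtsl3 was called in limb EGFP+ (16 reads) and limb EGFP- (15 reads) and in neither trunk list. Adamts20 was called in all lists but limb EGFP-, with 17, 12 and 17 reads in limb EGFP+, trunk EGFP+ and trunk EGFP-. Mmp23 was missing from the same list and had 36, 14 and 18 reads. Mmp11, stromelysin 3, was missing from trunk EGFP+ only and had 12, 17 and 17 reads in a peak shared with Chchd10. Most of these counts were low, so that a call in one list and none in the next may differ by a few reads.

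Where both fractions of a tissue had a promoter peak, the summit reads could be set side by side, without scaling between libraries. Adamts3, a procollagen N-proteinase, had 55 reads in limb EGFP+ (95% interval 41.4 to 71.6) and 24 in limb EGFP- (15.4 to 35.7), and 57 (43.2 to 73.9) and 22 (13.8 to 33.3) in the trunk fractions. The EGFP- lists held a second interval just past the promoter window, inside the span of the EGFP+ peaks, with 13 reads in the limb and 27 in the trunk. Adamts3 was the only member whose EGFP+ count was higher with separate intervals in both tissues. Adamts10, which acts on fibrillin microfibrils, had 104 (85.0 to 126), 58 (44.0 to 75.0), 69 and 46 reads in limb EGFP+, limb EGFP-, trunk EGFP+ and trunk EGFP-. Timp3, the matrix-bound inhibitor that also blocks aggrecanases, had 94, 52, 55 and 42 reads. Both separated in the limb only. Timp2 had 75, 41, 38 and 41 reads at promoter summits, but limb EGFP- held a further interval past the promoter window, inside the span of the limb EGFP+ peak, with 57 reads (43.2 to 73.9), which overlaps the 75 of limb EGFP+ (59.0 to 94.0). Mmp16, a membrane-type protease, had 35, 22, 35 and 13 reads and separated in the trunk only, but overlapped there too (35 against 17 reads) once intervals beside the window were counted.

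In total 4 of the 20 members called in both limb fractions were higher in EGFP+ with separate intervals, against 11.3% of all such genes, and 0 were higher in EGFP- (0.468% of all). In the trunk 2 of 20 were higher in EGFP+ (2.01% of all) and 0 in EGFP- (0.742% of all). With every interval that overlapped the promoter intervals of either fraction included, Adamts3, Adamts10 and Timp3 were left in the limb, 3 of 20 (10.9% of all), and Adamts3 in the trunk, 1 of 20 (1.94% of all), with 0 higher in EGFP- in the limb (0.449% of all) and the trunk (0.723% of all). The median EGFP+ to EGFP- ratio of the members' promoter reads was 1.24 in the limb and 1.15 in the trunk, and over all genes 1.24 and 1.04. Poisson intervals cover counting error only, and with 1 library each the spread between fetuses is unknown. The member promoter with the most summit reads was that of Mmp14, the membrane-anchored activator of pro-MMP2, with 110, 80, 93 and 70 reads and overlapping intervals within both tissues. By -log10 p, which also weighs the local background, the promoters of Adamts10 (51.7), Timp2 (44.6) and Timp3 (43.1) ranked above it (35.2) in limb EGFP+.

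The merged intervals gave 225 distal regions within 100 kb of a member, out of 42651 in all. Of these, 108 had a peak in an EGFP+ list and in no EGFP- list (EGFP+-only, 48.0%, all regions 47.3%), 70 had one in an EGFP- list and in no EGFP+ list (EGFP--only, 31.1%, all regions 31.8%), and 47 had peaks in both fractions, 19 of them in all 4 lists. Fraction-specific regions made up 79.1% of the members' distal regions and 79.1% of all. EGFP+-only regions were thus 60.7% of the fraction-specific ones (exact 95% interval 53.1 to 67.9), beside 59.8% over the genome. Called EGFP+ peaks in both tissues, named pan-chondrogenic here, were present in 28 of the 108 (25.9%, 18 to 35.2, all regions 22.9%), while 45 were limb-only and 35 trunk-only. The study used that name otherwise, for enhancers with similar H3K27ac coverage in limb and trunk chondrocytes. The shares here rest on calls and cannot be set beside the study's. Of the EGFP--only regions 15 of 70 had peaks in both tissues (21.4%, 12.5 to 32.9, all regions 1969 of 13564).

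Taken list by list, 63.7% of the members' 124 distal intervals in limb EGFP+ had no limb EGFP- peak (54.6 to 72.2, all intervals 68.5%), and 74.4% of 121 in trunk EGFP+ had no trunk EGFP- peak (65.6 to 81.9, all intervals 69.1%). In the other direction the shares were 50.9% of 110 in limb EGFP- (41.2 to 60.6, all 56.6%) and 53.0% of 83 in trunk EGFP- (41.7 to 64.1, all 57.3%). Every one of these 4 intervals includes the share over the whole list. Among stronger calls the members' share varied with the limit. At a fold of at least 4, 58 of 93 fraction-specific member regions were EGFP+-only (62.4%, 51.7 to 72.2), against 63.9% of all regions. With only intervals of -log10 q of at least 5 kept, 48 of 90 were EGFP+-only (53.3%, 42.5 to 63.9) against 68.0% of all regions. With the 20000 strongest intervals of each list 23 of 67 were EGFP+-only (34.3%, 23.2 to 46.9) against 50.5% of all regions.

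**Figure D2:**
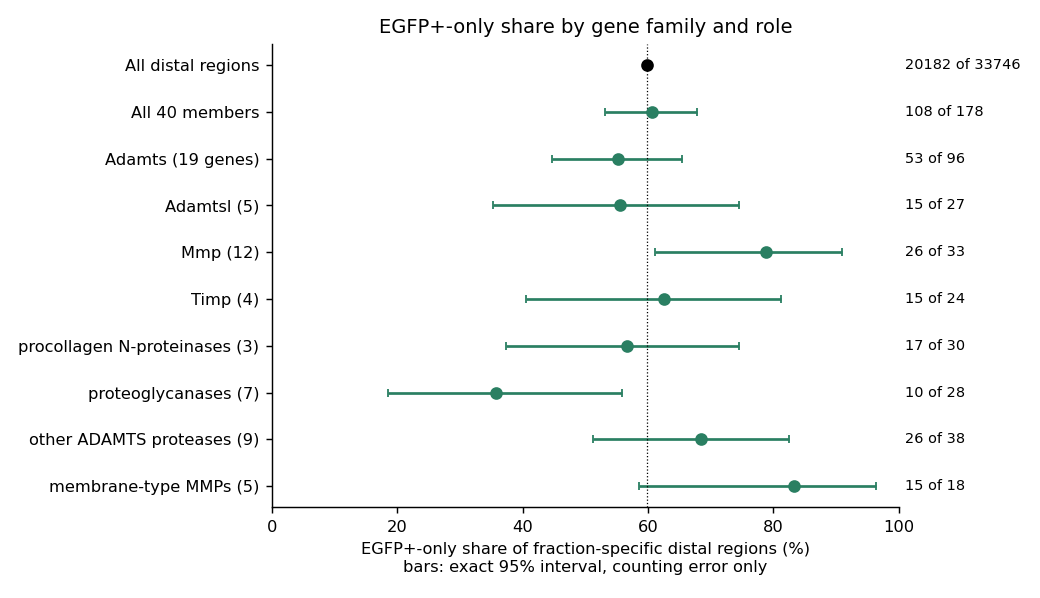
EGFP+-only share of fraction-specific distal regions (horizontal axis, percent, with exact 95% intervals for counting error) for all distal regions, the 40 members, the 4 families and 4 of the role groups, with the counts at the right. The Mmp genes (78.8%) lie to the right of the dotted line of all regions (59.8%) and the proteoglycanases (35.7%) to the left, and every other interval drawn covers it.

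By family, the share was 55.2% for Adamts (53 of 96, 44.7 to 65.4), 55.6% for Adamtsl (15 of 27, 35.3 to 74.5), 78.8% for Mmp (26 of 33, 61.1 to 91.0) and 62.5% for Timp (15 of 24, 40.6 to 81.2). The interval of the Mmp family lay above the 59.8% of all regions, and those of the other families included it. Only 8 of the 33 Mmp regions had a member as the nearest gene, 7 of them EGFP+-only. At -log10 q of at least 5 the Mmp share was 60.9% (38.5 to 80.3), against 68.0% of all regions. At a fold of at least 4 it was 73.9% (51.6 to 89.8), against 63.9%. Within 50 kb it was 75.0% (42.8 to 94.5), against 59.8%. Among the alternative settings, the Mmp interval lay above the share of all regions only within 200 kb (72.9%, 60.9 to 82.8, against 59.8%).

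The 3 procollagen N-proteinases, Adamts2, Adamts3 and Adamts14, which trim fibrillar procollagens, differed. Adamts2 and Adamts3 were marked in opposite ways, and Adamts14 had distal regions of both kinds within 100 kb. Together they had 17 EGFP+-only and 13 EGFP--only regions. Adamts3 had 6 EGFP+-only regions, all inside the gene, and 1 EGFP--only region 96.8 kb upstream with 8 reads. The strongest of them, chr5:89963611-89964279, lay 67.4 kb downstream of the start site with 42 reads in limb EGFP+ (95% interval 30.3 to 56.8) and 33 in trunk EGFP+ (22.7 to 46.3), and its neighbour chr5:89964938-89965914 had 36 and 41 reads. A second pair 39.4 and 38.8 kb downstream had 18 and 22, and 18 and 21 reads. No EGFP- list had a peak at any of these 4, and Adamts3 was also the gene whose promoter separated in both tissues. The other 2 EGFP+-only regions were limb-only, with 9 reads each.

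Adamts2 showed the reverse: all 8 of its distal regions were EGFP--only, all lay in its introns, and neither EGFP+ list had a peak within 100 kb of its start site. The strongest, 0.73 kb downstream of the start site, was called in limb EGFP- only with 18 reads. The others followed between 19.3 and 33.0 kb downstream. The regions 30.5 and 33.0 kb downstream had 21 and 24 reads in limb EGFP- and 29 and 29 in trunk EGFP-, and those 19.8 and 29.9 kb downstream had 22 and 24 in limb EGFP- and 17 and 23 in trunk EGFP-. No promoter peak was called in any list. In limb EGFP- the region next to the start site fell just past the promoter window, and the other lists had no peak there. Among stronger calls Adamts2 had 4 EGFP--only regions at -log10 q of at least 5, 3 with the 20000 strongest intervals and 1 at a fold of at least 4, and 0 EGFP+-only regions in each case.

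Adamts14 had more EGFP+-only regions than any other member (11, with 4 EGFP--only and 2 in both fractions), but 7 of the 11 were limb-only, 3 trunk-only and 1 pan-chondrogenic. The strongest, chr10:61122350-61122647, 13.1 kb upstream, had 23 reads in limb EGFP+ (14.6 to 34.5) and no peak in the other 3 lists. It lay just beside chr10:61121655-61122263, which was marked in all 4 lists. That neighbour had 17 reads in limb EGFP+, 9 in limb EGFP-, 12 in trunk EGFP+ and 14 in trunk EGFP-. The remaining 10 EGFP+-only regions had 7 to 15 reads. The EGFP--only regions 35.6 and 39.1 kb upstream of Adamts14 had peaks in both tissues, with 25 and 22 reads in limb EGFP- and 23 and 19 in trunk EGFP-. They and the strongest EGFP+-only region were nearest to Prf1. The Adamts14 start site was the nearest one for 6 of its 17 regions, 5 of them EGFP+-only and 0 EGFP--only. With weak intervals left out the balance turned, with 1 more EGFP--only than EGFP+-only region at -log10 q of at least 5.

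**Figure D3:**
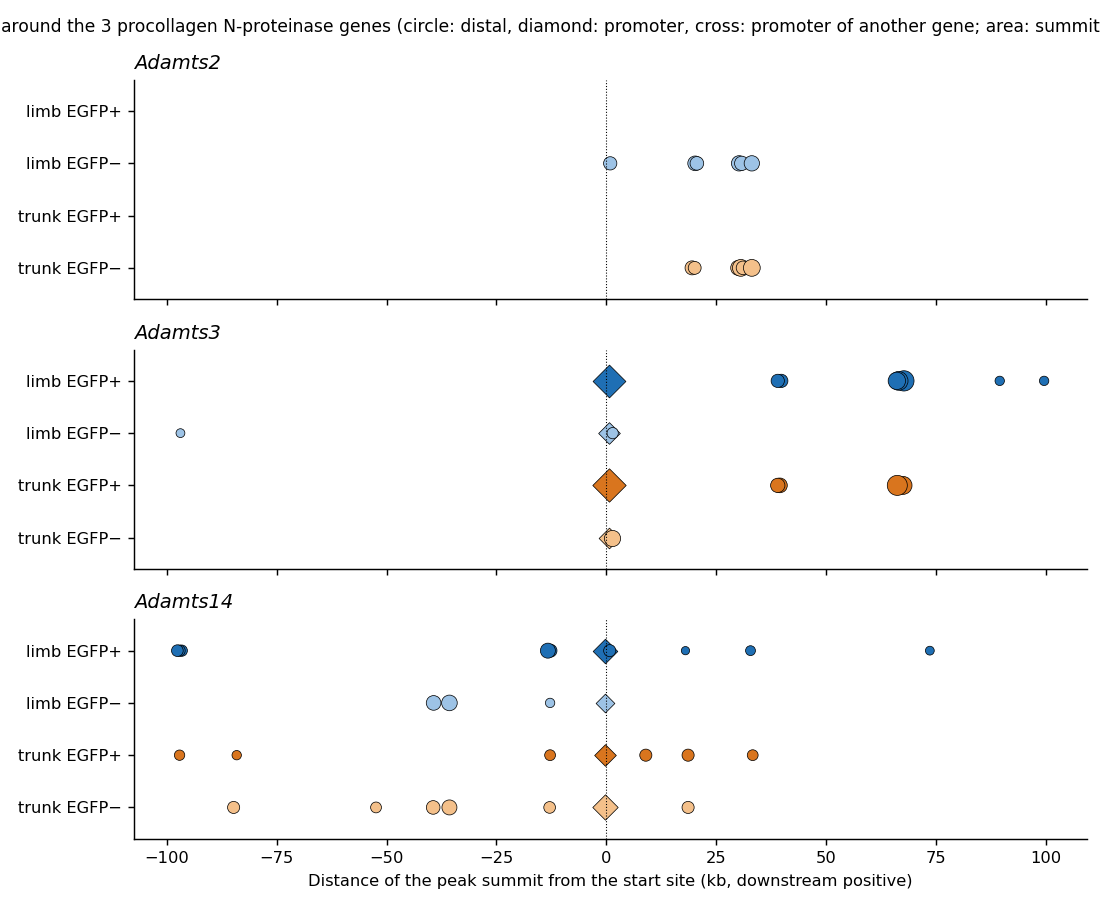
Peaks within 100 kb of Adamts2, Adamts3 and Adamts14 (panels) by distance of the summit from the start site (horizontal axis, kb, downstream positive) in the 4 lists (vertical axis), with circles for distal intervals, diamonds for promoter intervals and area in proportion to summit reads. Adamts2 has peaks in the EGFP- rows only, Adamts3 has its intronic circles away from the start site in the EGFP+ rows only (the EGFP- circles beside its promoter overlap the EGFP+ promoter interval and were counted with the promoter region), and Adamts14 has peaks in all 4 rows.

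The 7 proteoglycanases (Adamts1, Adamts4, Adamts5, Adamts8, Adamts9, Adamts15 and Adamts20), which cut aggrecan or versican, had 10 EGFP+-only and 18 EGFP--only regions, in a grouping by role that was made after the values were seen. Their EGFP+-only share of 35.7% (18.6 to 55.9) lay below that of all regions. Adamts1 had 5 EGFP--only regions and no other, although its promoter had 74, 73, 68 and 55 reads in limb EGFP+, limb EGFP-, trunk EGFP+ and trunk EGFP-. The Adamts1 region 44.6 kb downstream had 17 reads in limb EGFP- and 15 in trunk EGFP-. Adamts5, the main aggrecanase of mouse cartilage, had a pair of regions, both seen in trunk EGFP- only and counted for Adamts1 as well, with 23 reads 0.809 kb downstream of its start site and 12 reads further inside the gene. Neither EGFP+ list had a distal peak within 100 kb of Adamts1 or Adamts5.

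Adamts15 and Adamts8 start 19.9 kb apart and shared 8 regions. Around Adamts15 there were 5 EGFP--only, 3 EGFP+-only and 1 shared region, and around Adamts8 4, 3 and 1. The strongest EGFP--only region of all members, chr9:30745164-30746536, lay 85.7 kb downstream of Adamts15 with 29 reads in limb EGFP- (19.4 to 41.6) and 19 in trunk EGFP- (11.4 to 29.7). Just inside the gene, 1.02 and 2.12 kb from the start site, a pair of regions was called in trunk EGFP- only with 32 and 28 reads, the list that also held the Adamts15 promoter peak. Adamts9 had 2 EGFP+-only and 4 EGFP--only regions, Adamts20 had 4 and 3, and Adamts4 1 and 1. The 4 EGFP+-only regions of Adamts20 had 12 to 21 reads in limb EGFP+, and 1 was also marked in trunk EGFP+ with 17 reads.

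The remaining 9 ADAMTS proteases had 26 EGFP+-only and 12 EGFP--only regions (68.4%, 51.3 to 82.5). Adamts17, linked to fibrillin microfibrils, had the most regions of all members, with 10 EGFP+-only, 6 EGFP--only and 4 in all 4 lists. This rank rests on its 3 start sites. With 1 start site per gene it had 3 EGFP+-only and 3 EGFP--only regions, against 11 and 4 for Adamts14. Of the 10 EGFP+-only regions of Adamts17, 5 were pan-chondrogenic. One of them, chr7:66518105-66518490, had 16 reads in limb EGFP+ and 32 in trunk EGFP+. It lay just past chr7:66516967-66517854, which was marked in all 4 lists. That neighbour had 29 reads in limb EGFP+, 19 in limb EGFP-, 29 in trunk EGFP+ and 22 in trunk EGFP-. At the far end of the gene, the EGFP--only region chr7:66795613-66796064 had 29 in limb EGFP- and 22 in trunk EGFP-. Adamts6 had 6 EGFP+-only and no EGFP--only regions, but 3 of the 6 lay in or near Ppwd1 and were closer to the start of Cenpk. The strongest, 35.1 kb inside the gene, had 15 reads in limb EGFP+ alone.

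Adamts12, which cleaves cartilage oligomeric matrix protein, had 4 EGFP+-only and 2 EGFP--only regions, all inside the gene. Its leading region, chr15:11098767-11099408, had 25 reads in limb EGFP+ (16.2 to 36.9) and 29 in trunk EGFP+ (19.4 to 41.6). An EGFP--only region 19.6 kb downstream in the same gene had 16 reads in limb EGFP- and 18 in trunk EGFP-. Adamts19 had 4 EGFP+-only regions, all in limb EGFP+ and with 24, 21, 12 and 11 reads. Those with 24 and 21 reads lay 1.16 and 0.621 kb downstream of the start site, just past the promoter window. The Adamts19 promoter was called in both EGFP+ lists. Adamts7 and Adamts13 had 1 region of each kind. Adamts10 and Adamts16 had 1 EGFP--only region each, and Adamts18 had no distal region.

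The ADAMTS-like genes had 15 EGFP+-only, 12 EGFP--only and 12 shared regions, and only 1 of the 15 was pan-chondrogenic (6.67%, 0.169 to 31.9, all regions 22.9%). Adamtsl3 had 2 EGFP+-only and 5 EGFP--only regions. Both EGFP+-only ones and 4 of the EGFP--only ones were called in the limb only, the tissue in which its promoter was called. The strongest had 22 reads in limb EGFP- and lay in Efl1, 90.2 kb away. The balance depended on the window, with 11 EGFP+-only against 8 EGFP--only regions within 200 kb and 1 against 1 within 50 kb. Adamtsl1 had 3 EGFP+-only regions, all trunk-only, and 4 EGFP--only regions, 3 of them trunk-only. Adamtsl2, a regulator of microfibril and TGF-beta biology, had 3 and 2, Adamtsl4 had 5 and 1 beside 5 shared regions, and Adamtsl5 had 2 and 0 beside 3 shared regions.

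Among the MMPs, the 5 membrane-type genes had 15 EGFP+-only and 3 EGFP--only regions (83.3%, 58.6 to 96.4). Mmp15 and Mmp24 supplied 6 EGFP+-only regions each. No peak was called at either promoter, and of these regions only 1 for each gene had that gene's start site as the nearest. The leading Mmp24 region lay in an exon of Uqcc1, 71.7 kb from Mmp24, with 30 reads in limb EGFP+ and 18 in trunk EGFP+. Near Mmp15 the strongest region was EGFP--only, in an intron of Cngb1 96.9 kb upstream, with 13 reads in limb EGFP- and 24 in trunk EGFP-, and the strongest EGFP+-only region had 21 reads in limb EGFP+. With stronger calls Mmp15 had 0 EGFP+-only against 1 EGFP--only region (-log10 q of at least 5) and 0 against 2 (strongest 20000). Mmp16 had 2 EGFP+-only regions, both in trunk EGFP+, and Mmp17 had 1 in limb EGFP+. Mmp14 had no EGFP+-only region, 1 EGFP--only region and 4 in both fractions, among them an intron region with 45 reads in limb EGFP-, 20 in trunk EGFP+ and 46 in trunk EGFP- and no peak in limb EGFP+.

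The gelatinase gene Mmp2 had 4 EGFP+-only and 1 EGFP--only region. Its leading region, chr8:93576496-93576948, overlapped one of its exons and had 22 reads in limb EGFP+ (13.8 to 33.3) and 34 in trunk EGFP+ (23.5 to 47.5). Mmp9, the gelatinase of cartilage-resorbing cells, had no promoter peak and 2 regions in trunk EGFP+ only, both nearest to Pltp. Mmp13, the collagenase of hypertrophic cartilage, and Mmp3, stromelysin 1, had neither a promoter peak nor a distal region in any list. Mmp11 had 2 EGFP+-only, 1 EGFP--only and 3 shared regions, and Mmp23 had 1 EGFP--only and 1 shared region. The strongest EGFP+-only region of all members was counted for Mmp19 but lay 99.6 kb away in an intron of Gdf11 (chr10:128726359-128726888). It had 47 reads in limb EGFP+ (34.5 to 62.5) and 24 in trunk EGFP+ (15.4 to 35.7). Just beside it, chr10:128725243-128726171 had 36 reads in limb EGFP+, 25 in limb EGFP- and 23 in trunk EGFP+. A region 11.4 kb upstream of Mmp19 itself was marked in all 4 lists, with 13 and 15 reads in the EGFP+ lists and 52 and 40 in the EGFP- lists (limb, trunk).

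The 4 inhibitor genes had 15 EGFP+-only and 9 EGFP--only regions. Timp3 had 5 EGFP+-only, 3 EGFP--only and 3 shared regions, all nearest to its own start site. Its EGFP+-only regions 7.50, 8 and 29 kb downstream had 25, 25 and 26 reads in limb EGFP+. The first and last also had peaks in trunk EGFP+ with 21 and 20 reads. The last lay just beside chr10:86167181-86167719, a shared region with 24 reads in limb EGFP+, 31 in limb EGFP- and 21 in trunk EGFP+. Timp2 had 3 EGFP+-only, 4 EGFP--only and 5 shared regions. Its strongest EGFP--only region, chr11:118255680-118256496, 9.11 kb upstream, had 39 reads in limb EGFP- (27.7 to 53.3) and 36 in trunk EGFP- (25.2 to 49.8). Timp4 had 4 EGFP+-only regions, 3 of them in the trunk, and 1 EGFP--only region, and Timp1 had 3 and 1.

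**Figure D4:**
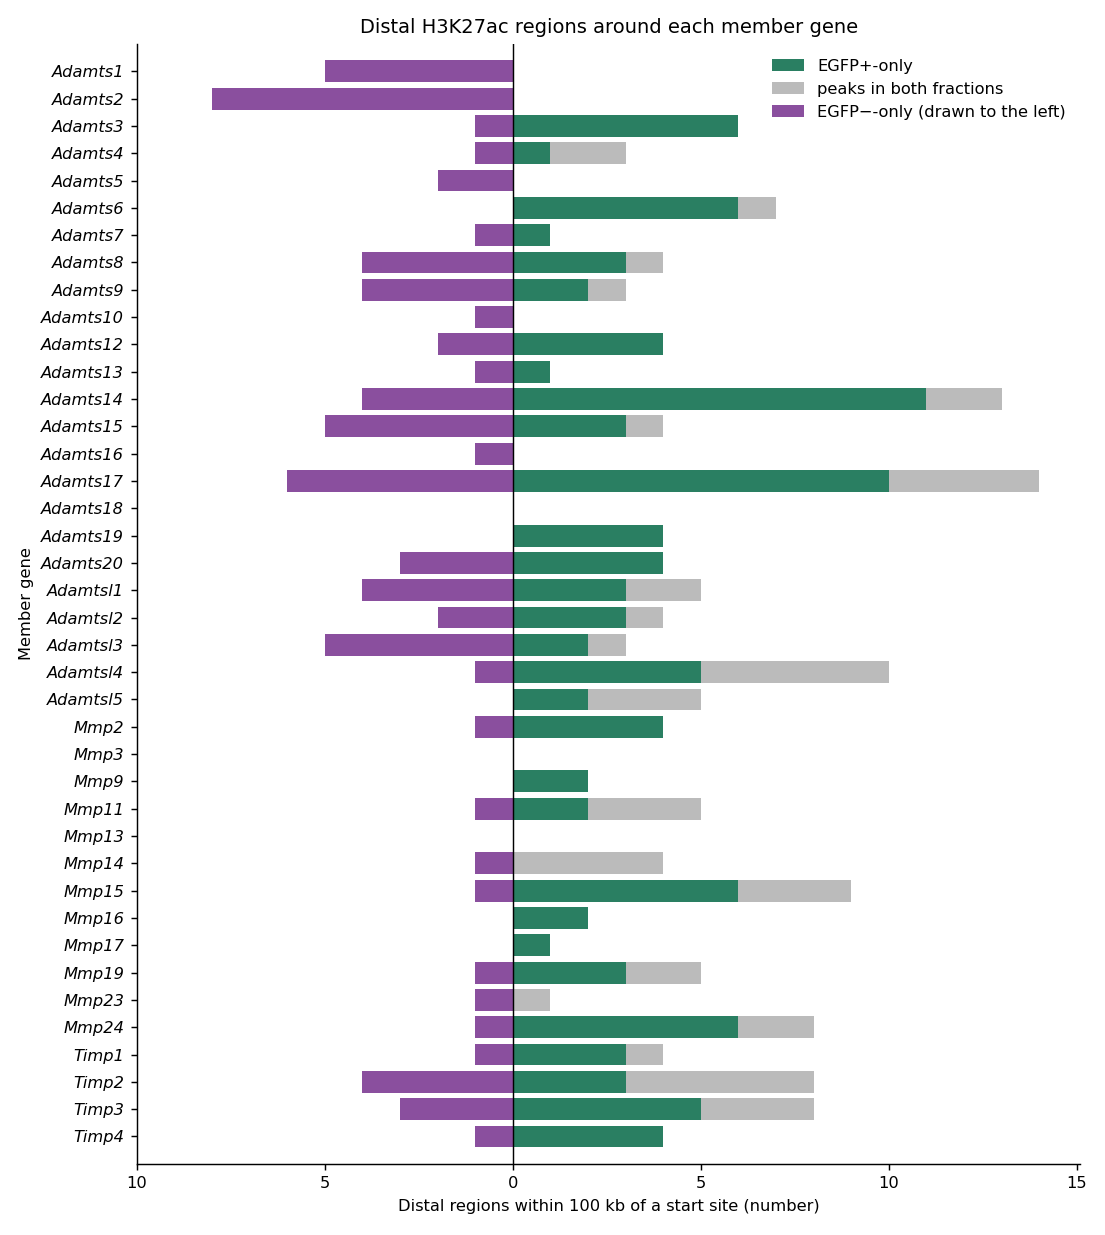
Number of distal regions within 100 kb of each of the 40 members (horizontal axis, number of regions), with EGFP+-only regions and regions shared by both fractions to the right and EGFP--only regions to the left. The longest bars to the right are those of Adamts17 and Adamts14, the longest to the left is that of Adamts2 (8), and Adamts18, Mmp3 and Mmp13 have no bar.

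Per gene, 21 members had more EGFP+-only than EGFP--only regions (52.5%, all genes 40.2%), 13 had more EGFP--only regions (32.5%, all genes 24.3%) and 6 had equal numbers. No distal region was found for 3 members, beside 22.3% of all genes. At least 5 EGFP+-only regions were found for 8 of 40 members (13.2% of all genes) and at least 5 EGFP--only regions for 5 of 40 (5.97% of all genes). The median member had 5.50 distal regions, 2.50 EGFP+-only and 1 EGFP--only, and the median gene 3, 1 and 1.

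Distance does not assign a region to a gene. A member's start site was the nearest one for 136 of the 225 regions (60.4%, 53.7 to 66.9), for 65 of the 108 EGFP+-only and for 49 of the 70 EGFP--only regions, and 108 regions lay inside a member. Among the 114 fraction-specific regions nearest to a member the EGFP+-only share was 57.0% (47.4 to 66.3). Neighbouring members were not independent: Adamts1 and Adamts5 start 98.7 kb apart and shared 2 regions, Adamts13 and Adamtsl2 start 86.5 kb apart and shared 2, and 12 regions in all were counted for 2 members. Mmp3 and Mmp13 start 173 kb apart and shared none.

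The 300 bases around the strongest summit of each region were searched on both strands for a fixed set of short motifs. TGTGGT (RUNX) occurred in 24.1% of the members' EGFP+-only regions (16.4 to 33.3), in 10.0% of their EGFP--only regions (4.12 to 19.5) and in 20.7% of all distal regions, with 21.9% of all EGFP+-only and 20.4% of all EGFP--only regions. CAGCTG (an E-box) occurred in 22.2%, 11.4% and 20.3%, with 18.1% of all EGFP+-only and 22.7% of all EGFP--only regions. ACAAAG or ACAATG (SOX) occurred in 28.7%, 24.3% and 35.4%, with 34.4% of all EGFP+-only and 39.1% of all EGFP--only regions. The paired, head-to-head SOX motif (ACAA and TTGT with 5 to 7 bases between them, which can overlap the single motif) occurred in 0.926%, 2.86% and 1.72%. TGANTCA (AP-1) was found in 6.48%, 5.71% and 8.44%, GTAAACA (FOX) in 3.70%, 4.29% and 4.32%, and GGAATG (TEAD) in 20.4%, 22.9% and 18.1%. For each motif the intervals of the members' 2 classes overlapped. A match is a description of the letters and not a binding site.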

How the data were processed

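H3K27ac ChIP-seq lists of 4 sorted populations, 1 library each, were used. According to the study's methods, the authors sampled the same number of reads per library, mapped them with Bowtie2 2.3.5.1 to GRCm39 after trimming with cutadapt 1.18 and called peaks with MACS2 2.2.7.1 per library. The deposited lists give a score, a fold (ratio of summit reads to local background) and -log10 of the p and q values. Equal sampling means that depth differs only through mapping, filtering and duplicates. The genome-wide background was 1.49 reads in limb EGFP+, 1.63 in limb EGFP-, 1.60 in trunk EGFP+ and 1.83 in trunk EGFP-. It was thus higher in the EGFP- list of each tissue, and reads were not scaled for it. The read length (50 or 100 bases) and the sonicator are not assigned to samples in the sources used here.

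Rows of one start and end were joined. Summit reads were recovered from fold and -log10 p, and gave back the deposited -log10 p in 100% of intervals. Intervals of the 4 lists that overlapped by at least 1 bp were merged into regions. Start sites (67388, every protein-coding transcript) came from GENCODE vM39 on GRCm39. Distances run to the nearer edge. Shares carry exact Clopper-Pearson and reads exact Poisson 95% intervals, for counting error only. Python 3.11.15, pandas 2.3.3, scipy 1.17.1 and pysam 0.24.0 were used, and the steps were tested on simulated data. The authors' p-values were used for recovering summit reads and for ranking, within lists and, for leading regions, across them. Their q-values and folds set limits for the stronger calls.

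The members and the gene lists were chosen with earlier results of these data known. Named in full were members whose promoter call differed between lists (with the exception below), the 5 with the most EGFP+-only and EGFP--only regions with ties, members without a distal region, the 8 EGFP+-only and 5 EGFP--only regions of highest -log10 p, and pairs of neighbours. Role groups were made after the values were seen. Promoter sequences on another build were not used. The promoter values of 1 member whose call differed between lists are not reported here, and it is left out of the plot of promoter reads.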

Additional observations from a re-analysis of the deposited data

Results flagged for a closer look

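For 4 members the number of distal intervals differed between the fractions in opposite directions in limb and trunk, and with 1 library per population this difference was not tested. Around Timp2, limb EGFP- had more intervals than limb EGFP+ (difference EGFP+ minus EGFP- of -6, 6 against 12 intervals), and trunk EGFP+ more than trunk EGFP- (4, 9 against 5). Of the 12, 2 overlapped the promoter interval of limb EGFP+, and neighbouring intervals are counted singly, so that these numbers depend on how the caller divided the signal. Around Adamts9 the differences were -3 in the limb (2 against 5) and 1 in the trunk (5 against 4). Around Adamtsl2 they were -1 (1 against 2) and 2 (3 against 1). Around Adamts13 they were -1 (0 against 1) and 1 (1 against 0), from single intervals.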

How the results depend on the processing

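No paired analysis was possible because each population has 1 library and no test was run. Alternatives were stronger calls (-log10 q of at least 5, fold of at least 4, or in each list the 20000 intervals ranked highest by -log10 p), windows of 50 and 200 kb, 1 start site per gene, the nearest gene only, and 50% overlap for merging. Chosen after seeing the data were a promoter window to 2 kb downstream, regions whose middle was nearest to a member, and promoter reads over every interval overlapping the promoter intervals of either fraction. Of 119 values for the main comparisons, 100 stayed within their error (counts within 1.5 times) and 19 moved. With the 20000 strongest intervals per list the EGFP+-only share was 34.3% for all members, 41.9% for Adamts, 28.6% for Adamtsl, 37.5% for Mmp and 15.4% for Timp. The share of all regions was 50.5% at this setting, instead of 59.8%. EGFP--only regions were thus the more numerous around the members and in each family. Of the members 6 had more EGFP+-only and 16 more EGFP--only regions, instead of 21 and 13, and the same counts over all genes were not made at this setting. At -log10 q of at least 5 the Mmp share was 60.9% and the Timp share 38.5%, against 68.0% of all regions. Members with more promoter reads in trunk EGFP+ went from 2 to 1 with overlapping intervals included. Promoter calls in trunk EGFP- fell to 15 at a fold of at least 4. Shares without an opposite peak were 51.6% (strongest 20000) and 74.5% (fold) in limb EGFP+, 60.8%, 64.2% and, nearest gene only, 61.7% in limb EGFP-, 63.9%, 83.3% and, with 1 start site, 64.1% in trunk EGFP+, and 64.6% (nearest gene only) in trunk EGFP-. Gene by gene, of 80 values for the difference between EGFP+-only and EGFP--only regions of 10 genes, 38 stayed close, 36 moved and 6 turned. It ranged from -9 to -1 for Adamts2, 2 to 8 for Adamts3 and Adamts6, 1 to 9 for Mmp24, 0 to 7 for Adamts17, -5 to -2 for Adamts1 and -4 to 0 for Adamts15. It turned for Adamts14 (7; -1 at the q limit, -2 with the strongest 20000, -1 at the fold limit), Mmp15 (5; -1 at the q limit, -2 with the strongest 20000) and Adamtsl3 (-3; 3 at 200 kb). The cause was not tested. Called summits went down to 7 or 8 reads, and weaker marking was not detectable.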

Other observations

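A further list of 38 genes of matrix proteolysis, made of the other MMPs, ADAM proteases, proprotein convertases, plasminogen activators, cathepsins and the substrates Acan and Vcan, had promoter peaks at 21 (limb EGFP+), 17 (limb EGFP-), 22 (trunk EGFP+) and 20 (trunk EGFP-) genes of 38, beside 54.4%, 51.6%, 52.6% and 52.7% of all genes. Of the 38 genes, 15 had more EGFP+-only distal regions, beside 40.2% of all genes, and 12 more EGFP--only ones, beside 24.3%. With a region counted for each gene, the sums were 103 and 73. Over the genome 59.8% of the fraction-specific regions were EGFP+-only. Whether the list differs from all genes was not tested. Acan, the aggrecan gene and also one of the chondrocyte markers, supplied 20 of the 103 and 1 of the 73. It was the only gene of the list whose promoter was called in both EGFP+ lists and in neither EGFP- list. Adam12 had 3 EGFP+-only and 10 EGFP--only regions, and Bmp1, a procollagen C-proteinase, 1 and 5. Thsd4 (Adamtsl6), an ADAMTS-like gene outside the member list, had 14 and 8, and Htra1, a secreted serine protease, 6 and 1. Adam12, Bmp1, Thsd4 and Htra1 were picked after their values were seen. Promoters of 13 genes of the list were called in no population, as were 41.3% of all genes.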
